A study of Mus musculus with 12 samples.

Results

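The junction-linked actin adaptors and nectins described here are 10 genes: *Ajuba*, *Limd1* and *Wtip* of the Ajuba family, *Vcl* (vinculin), *Zyx* (zyxin) and *Tln1* (talin 1), the nectin genes *Pvrl1*, *Pvrl2* and *Pvrl3*, and *Mllt4* (afadin). They were picked by gene symbol out of 39017 genes in the deposited table, with their values in the contrast of the genotypes already known. Group differences for these genes are therefore a description and are not independent support for a direction. All 10 were among the 14953 genes with enough counts to be tested, with group means between 284 and 10600 normalized counts.

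RNA was sequenced from whole adrenals, trimmed of fat, of female mice aged 10–11 weeks on a mixed sv129-C57Bl/6 background. The 6 control mice (Ctrl) were *AS* Cre/+ by the genotype given in the labels, although their titles and the paper also call them wild type, and the 6 βCat-GOF mice were *AS* Cre/+ with *Ctnnb1* fl(ex3)/+. By these genotypes all 12 mice carried Cre at the aldosterone synthase locus (*AS*, *Cyp11b2*), which is active in the zona glomerulosa (zG), and βCat-GOF mice also carried 1 allele from which Cre removes exon 3, so that β-catenin is stabilised in those cells. The comparison asked which transcripts differ once β-catenin is stabilised in zG cells. Because whole glands were sequenced, a change in the number of cells of a type and a change in RNA per cell cannot be told apart.

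In adherens junctions, cadherins and nectins hold neighbouring cells together. Nectins bind one another across the cell gap and bind afadin inside the cell, and afadin in turn binds actin filaments. Cadherins reach actin through β-catenin and α-catenin. Under tension α-catenin opens and recruits vinculin and Ajuba-family proteins, whereas talin links integrins to actin at contacts with the matrix, where vinculin and zyxin are also found. Zyxin and the Ajuba family carry LIM domains, zinc-binding folds for protein contacts, and Ajuba-family proteins also bind the LATS kinases of the Hippo pathway. In the adrenal cortex, zG cells meet at shared adherens junctions in rosettes.

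Total counts ran from 14090378 to 25625494 in Ctrl libraries and from 13484675 to 24951480 in βCat-GOF libraries. In these libraries 3 counts correspond to 0.117–0.222 CPM (the count divided by the library total and scaled to a common total). Log2 CPM and CPM sums below use library totals adjusted by a TMM scaling factor per library. Mice are numbered within each group. Labels of βCat-GOF mice 1 and 2 share a stem, as do those of Ctrl mice 1 and 2 and of Ctrl mice 3 and 4, so that each pair may be 2 samples of one animal. p-values then rest on fewer animals than libraries. With 1 mouse of each such pair left out (Ctrl mice 1 and 3 and βCat-GOF mouse 1), the 4 genes called below kept their calls. That βCat-GOF mouse had the lowest *Zyx* and *Pvrl2* counts of its group, and other choices of mice were not run. Label numbers also differ between the genotypes throughout, and whatever these numbers stand for cannot be told apart from genotype. *Ctnnb1* itself, counted with or without exon 3, had 21600 ± 858 (SD, n = 6) normalized counts in Ctrl and 21400 ± 1150 (n = 6) in βCat-GOF, which does not test the recombination. Of the zG markers, 10 of 11 tested were higher in βCat-GOF and 4 passed the cut-offs below (*Agtr1b*, *Agtr1a*, *Vsnl1* and *Dab2*). *Cyp11b2* was not one of them (log2 fold change -0.18, adjusted p = 0.82).

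On the mouse assembly GRCm38 (GENCODE M21), *Ajuba* lies on chromosome 14 at 54567472–54577558, minus strand, and *Vcl* on the same chromosome at 20929398–21033676, plus strand. *Limd1* is on chromosome 9 at 123478706–123521552 and *Wtip* on chromosome 7 at 34109543–34133268. *Zyx* is on chromosome 6 at 42349630–42360213 and *Tln1* on chromosome 4 at 43531519–43562691. *Pvrl1* (now *Nectin1*) is on chromosome 9 at 43743984–43807461, *Pvrl2* (*Nectin2*) on chromosome 7 at 19716644–19750483, *Pvrl3* (*Nectin3*) on chromosome 16 at 46387706–46498525 and *Mllt4* (*Afdn*) on chromosome 17 at 13760539–13906150.

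RefSeq promoter sequences matched 8 of the 10 genes (assembly GRCm38.p6), all but *Limd1* and *Pvrl1*. Both strands of the 250 bases before each RefSeq start were searched for motifs. They were the TCF/LEF core (CTTTGA or CTTTGT), the TEAD core (GGAATG) and the SRF CArG box. Except for *Wtip* and *Vcl*, the RefSeq starts differ from the GENCODE gene bounds given above. The *Pvrl2* and *Pvrl3* windows lie inside those bounds. TCF/LEF factors partner with β-catenin, TEAD factors with the Hippo-regulated co-activators YAP and TAZ, and SRF responds to actin dynamics. *Ajuba*, *Wtip* and *Vcl* held matches, and their windows are shown for that reason, 5′ to 3′ on the gene's strand with the matches in capitals. They span chr14:54577662-54577911 (minus strand), chr7:34133269-34133518 (minus strand) and chr14:20929148-20929397 (plus strand).
Ajuba: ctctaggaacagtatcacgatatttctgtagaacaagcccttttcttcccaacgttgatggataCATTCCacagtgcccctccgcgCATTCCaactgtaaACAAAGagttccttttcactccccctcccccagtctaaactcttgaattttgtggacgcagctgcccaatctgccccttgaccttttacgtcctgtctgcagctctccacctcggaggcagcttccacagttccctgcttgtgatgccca
Wtip: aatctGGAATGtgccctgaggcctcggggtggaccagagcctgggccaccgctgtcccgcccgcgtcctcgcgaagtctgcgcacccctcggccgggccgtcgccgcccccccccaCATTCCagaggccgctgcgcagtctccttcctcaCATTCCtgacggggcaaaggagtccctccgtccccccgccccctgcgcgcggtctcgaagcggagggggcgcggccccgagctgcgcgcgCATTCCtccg
Vcl: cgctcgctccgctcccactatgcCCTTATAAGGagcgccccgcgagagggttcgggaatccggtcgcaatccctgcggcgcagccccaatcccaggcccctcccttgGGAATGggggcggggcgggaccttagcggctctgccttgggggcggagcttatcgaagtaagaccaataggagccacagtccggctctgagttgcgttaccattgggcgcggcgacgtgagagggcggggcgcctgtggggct

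*Ajuba* held 1 TCF/LEF core, 150 bases before the start, and 2 TEAD cores, 186 and 164 bases before it. *Wtip* held 4 TEAD cores, at 245, 134, 100 and 10 bases. *Vcl* held 1 CArG box at 227 bases and 1 TEAD core at 143 bases. No matches overlapped one another. The other windows, those of *Zyx*, *Tln1*, *Pvrl2*, *Pvrl3* and *Mllt4*, held none of the 3 motifs. Among 32851 promoters of the same length, 27.6% held a TCF/LEF core, 12.6% a TEAD core and 1.47% a CArG box. A match is a description of letters in the window and was not tested for binding.

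Within the Ajuba family, *Ajuba* was higher in all βCat-GOF mice than in any Ctrl mouse, whereas *Limd1* and *Wtip* overlapped between genotypes. *Ajuba* had 698 normalized counts in the lowest Ctrl mouse, a median of 779 and 1154 in the highest. In βCat-GOF, the lowest mouse had 1462, the median was 1680 and the highest mouse had 2733. The group means were 856 ± 180 (SD, n = 6) and 1960 ± 595 (n = 6), a 2.28-fold difference (log2 fold change 1.19 ± 0.19 SE, adjusted p = 0.0041 by edgeR). Mice 1 and 2 (2733 and 2710) stood well above the other 4 βCat-GOF mice, which lay between 1462 and 1725. Without them the *Ajuba* log2 fold change was 0.87 (adjusted p = 0.0033).

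*Limd1*, a relative of Ajuba that likewise binds LATS kinases, varied little among controls, from 1149 through a median of 1190 to 1297 normalized counts. βCat-GOF values ran from 1139 through 1500 to 1666. The means were 1200 ± 55.3 and 1440 ± 197 (n = 6 each), and the log2 fold change of 0.25 ± 0.086 missed the cut-offs (adjusted p = 0.13). The overlap came from mice 1 and 2 (1139 and 1270), since the other 4 βCat-GOF mice (1481–1666) exceeded every control. Without mice 1 and 2 the *Limd1* log2 fold change was 0.36 and its adjusted p 0.0091, still under the fold cut-off.

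*Wtip*, another family member, had the fewest counts of the 10 genes. Ctrl mice had 245–332 normalized counts (median 282) and βCat-GOF mice 292–472 (median 365). The means were 284 ± 28.5 and 368 ± 68 (n = 6 each; log2 fold change 0.37 ± 0.13, adjusted p = 0.15). As for *Ajuba*, mice 1 and 2 were the highest of the βCat-GOF mice (472 and 413), and the log2 fold change without them was 0.21 (adjusted p = 0.28). Per exon length, *Ajuba* made up 42.0% ± 4.9 (SD, n = 6) of the summed Ajuba-family level in Ctrl and 56.7% ± 7.42 (n = 6) in βCat-GOF. These shares did not overlap, 37.4–49.6% against 50.1–65.9%.

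Of the proteins that couple adhesion sites to actin, *Vcl* and *Zyx* were higher in βCat-GOF and *Tln1* was not. Vinculin binds α-catenin, talin and actin. *Vcl* ran from 2711 through a median of 2870 to 3095 normalized counts in Ctrl, and from 4084 through 4520 to 5640 in βCat-GOF. Every βCat-GOF mouse was above every control by a clear margin. With means of 2880 ± 157 and 4670 ± 557 (n = 6 each), *Vcl* was 1.61-fold higher (log2 fold change 0.69 ± 0.083, adjusted p = 0.00066), the smallest adjusted p of the 10 genes. *Vcl* shares 25.5% of the bases in all its exons, and 39.8% of its transcript, with *Ap3m1* on the opposite strand, and the strand setting of the counting was not given in the sources used here. *Ap3m1* had 1660 ± 136 and 1680 ± 256 normalized counts (log2 fold change 0.01, adjusted p = 0.97).

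Zyxin gathers at stretched or torn actin bundles and brings in proteins that extend actin filaments. *Zyx* had 943–1175 normalized counts in Ctrl (median 971) and 1038–3101 in βCat-GOF (median 1740). In order of mouse number, βCat-GOF mice had 1038, 1386, 1950, 3101, 1528 and 2229 normalized counts. Mouse 1 fell inside the Ctrl range, 5 of 6 exceeded every control, and mouse 4 had 2.99 times the count of mouse 1. The means were 1000 ± 87.2 and 1870 ± 734 (n = 6 each; 1.85-fold, log2 fold change 0.89 ± 0.2, adjusted p = 0.029). The coefficient of variation of *Zyx* was 8.71% in Ctrl and 39.2% in βCat-GOF, the widest spread of any of the 10 genes in either group. This call was sensitive to single mice: leaving out 1 of Ctrl mice 2, 3, 4 or 6, or βCat-GOF mouse 3 or 6, raised its adjusted p to 0.051–0.068. Without βCat-GOF mice 1 and 2, the *Zyx* log2 fold change was 1.12 (adjusted p = 0.0018).

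*Tln1* encodes the integrin activator talin 1 and had the most counts of the 10 genes, 8023–12349 in Ctrl (median 10800) and 7909–12773 in βCat-GOF (median 9480). The genotypes overlapped nearly completely. The means were 10600 ± 1720 and 10200 ± 2050 (n = 6 each; log2 fold change -0.06 ± 0.14, adjusted p = 0.84).

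Among the nectins, *Pvrl2* was higher in βCat-GOF, whereas *Pvrl1*, *Pvrl3* and afadin had log2 fold changes between -0.08 and -0.0022. *Pvrl2*, which encodes nectin-2, ran from 878 through a median of 1100 to 1201 normalized counts in Ctrl and from 1229 through 1570 to 1926 in βCat-GOF. The groups did not overlap, but the lowest βCat-GOF mouse (mouse 1, 1229) was close to the highest control. The means were 1090 ± 117 and 1580 ± 273 (n = 6 each; 1.44-fold, log2 fold change 0.53 ± 0.11, adjusted p = 0.023). That fold lies near the cut-off of 1.4. Without Ctrl mouse 6, *Pvrl2* lost its call by adjusted p (0.056), and its log2 fold change fell under the log2 cut-off of 0.485 without Ctrl mouse 4 (0.47) and without βCat-GOF mouse 4 (0.46). Without βCat-GOF mouse 5 the log2 fold change was just under that cut-off (0.485 after rounding).

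*Pvrl1*, which encodes nectin-1, had 353–541 normalized counts in Ctrl (median 386) and 329–533 in βCat-GOF (median 374), with means of 408 ± 71.6 and 399 ± 72.3 (log2 fold change -0.04 ± 0.14, adjusted p = 0.9). *Pvrl3*, which encodes nectin-3, had 758–1329 in Ctrl (median 1090) and 826–1116 in βCat-GOF (median 1010), with means of 1050 ± 229 and 999 ± 100 (log2 fold change -0.08 ± 0.13, adjusted p = 0.78). *Mllt4*, the afadin gene, had 1105–1585 in Ctrl (median 1280) and 1102–1466 in βCat-GOF (median 1320), with means of 1310 ± 161 and 1310 ± 119 (log2 fold change -0.0022 ± 0.095, adjusted p = 0.99). *Mllt4* also shares 12.9% of its transcript, at 95% identity or more, with *Zfp160*, which had 350 ± 29.1 and 348 ± 80.1 normalized counts. In each of the 3 genes the ranges of the genotypes overlapped over most of their extent. Per exon length, *Pvrl2* made up 67.0% ± 3.45 (SD, n = 6) of the summed level of the 3 nectins in Ctrl and 74.9% ± 3.38 (n = 6) in βCat-GOF, with overlapping ranges of 63.0–72.5% and 69.9–78.3%.

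**Figure D1:**
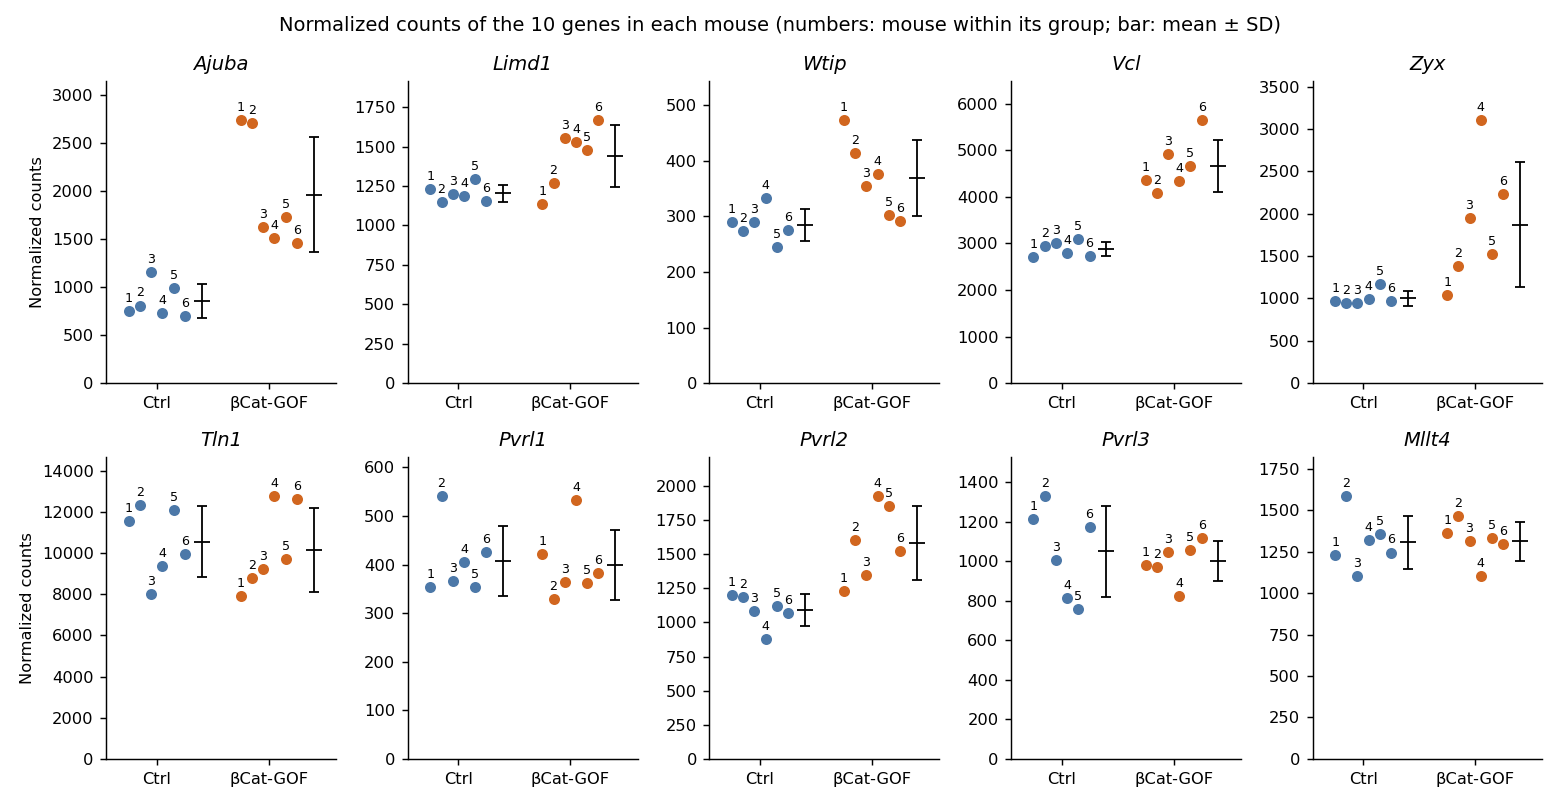
Normalized counts (vertical axes, from 0) of each of the 10 genes in the 6 Ctrl mice (blue) and 6 βCat-GOF mice (orange), with the mouse number above each point and the mean ± SD as a bar. *Ajuba*, *Vcl* and *Pvrl2* do not overlap between genotypes, and βCat-GOF mice 1 and 2 are the highest in *Ajuba* (2733 and 2710) and the lowest in *Zyx* (1038 and 1386).

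In all, 6 of the 10 genes had a positive log2 fold change, and 4 (*Ajuba*, *Vcl*, *Zyx* and *Pvrl2*) passed the cut-offs of a fold above 1.4, an adjusted p under 0.05 and a mean above 100 normalized counts. Of all genes tested, 1.48% passed these cut-offs as higher in βCat-GOF. None of the 10 passed as lower, which 0.869% of all genes did by edgeR. No gene of the 10 was lower at an unadjusted p under 0.05, and DESeq2 also called 0 of them lower. For 3 genes every βCat-GOF mouse was above every Ctrl mouse (1.61% of all genes), and for none was every βCat-GOF mouse below every Ctrl mouse (1.16% of all genes). The median log2 fold change was 0.31 over the 10 genes and 0.00011 over all genes tested. As the 10 genes were chosen with this contrast known, nothing is read from these counts.

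Levels were compared between genes only as normalized counts per kilobase of exon. In Ctrl adrenals the mean level per kilobase was 1080 ± 175 for *Tln1*, 352 ± 19.2 for *Vcl*, 312 ± 33.5 for *Pvrl2*, 235 ± 49.4 for *Ajuba*, 200 ± 9.2 for *Limd1* and 186 ± 16.2 for *Zyx*. Lower levels per kilobase were found for *Mllt4* (128 ± 15.8), *Wtip* (119 ± 12.0), *Pvrl3* (82.3 ± 18.0) and *Pvrl1* (72.1 ± 12.7; SD, n = 6 for each). Neighbours in this order overlapped between mice except at 2 steps, from *Tln1* to *Vcl* and from *Zyx* to *Mllt4*. In βCat-GOF the order began with *Tln1* (1040 ± 209), *Vcl* (570 ± 68.0), *Ajuba* (538 ± 163) and *Pvrl2* (453 ± 78.2), followed by *Zyx* (347 ± 136) and *Limd1* (239 ± 32.7). This order depended on the length used. With the longest transcript as the length, the mean level per kilobase of *Zyx* in Ctrl (314 ± 27.3) was above those of *Ajuba* (252 ± 53.0) and *Limd1* (248 ± 11.4), and the range of *Zyx* (296–369) did not overlap with that of *Limd1* (237–268). In βCat-GOF, *Zyx* (587 ± 230), *Ajuba* (578 ± 175) and *Pvrl2* (578 ± 99.9) then had nearly equal means. *Pvrl2* was the most abundant nectin transcript per kilobase in both genotypes, and its Ctrl range of 251–344 lay above those of *Pvrl1* (62.5–95.7) and *Pvrl3* (59.5–104).

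**Figure D2:**
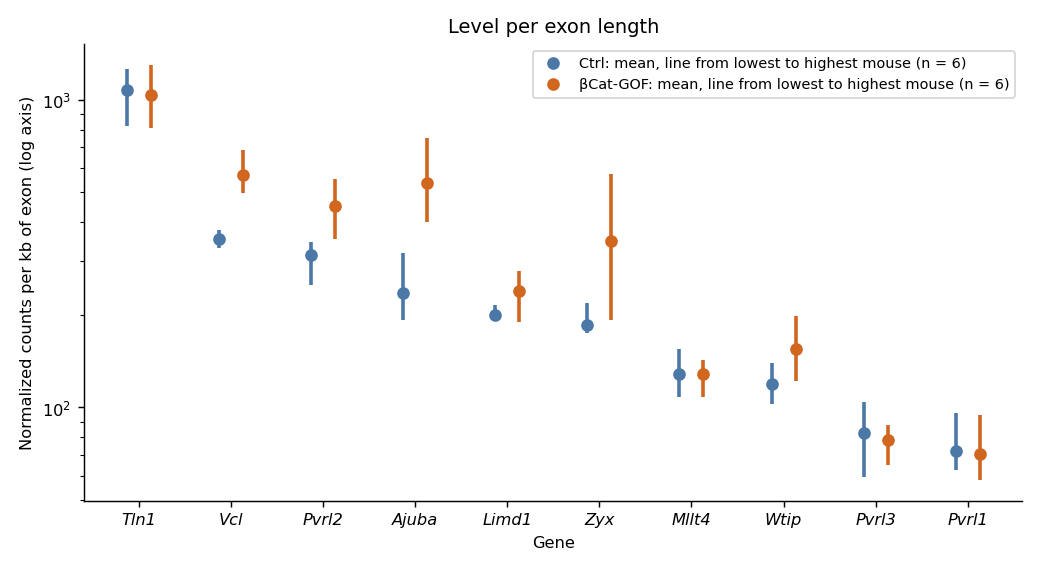
Normalized counts per kilobase of exon (vertical log axis) for the 10 genes, ordered by the Ctrl mean, with points for the group mean and lines from the lowest to the highest of 6 mice. *Tln1* stands above the rest in both genotypes, and *Vcl* moves from 352 in Ctrl to 570 in βCat-GOF.

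To place the 10 genes among their relatives, 5 further lists were examined, of other zyxin-family LIM proteins, other LIM adaptors of adhesions, other partners of vinculin and talin, other nectins and nectin-like proteins, and partners of afadin and nectins. Of 58 listed genes 54 were tested, and 32 had a positive and 22 a negative log2 fold change (median 0.06). By edgeR 0 of the 54 passed the cut-offs in either direction, where 1.48% of all genes tested passed as higher and 0.869% as lower. At an unadjusted p under 0.05 there were 13 of the 54. The share of all genes at that p is not given here, so nothing is read from this count. DESeq2 called 1, *Tes*, as higher. Among zyxin-family genes, *Trip6* (log2 fold change 0.16, adjusted p = 0.42) and *Fblim1* (-0.29, 0.57) had the smallest adjusted p. Among the other LIM adaptors these were *Tes* (testin, which binds zyxin; 0.64, 0.066) and *Pdlim5* (0.48, 0.24).

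The partners of vinculin and talin with the smallest adjusted p were *Parva*, for the actin- and ILK-binding protein parvin α (log2 fold change 0.21, adjusted p = 0.079), and *Tln2*, for the second talin (-0.46, 0.14). Among nectin relatives they were *Pvr* (0.44, 0.15) and *Cadm3* (-0.6, 0.21). Among partners of afadin and nectins they were *Tiam1*, an activator of the GTPase Rac (0.29, 0.075), and *Lgals3* (-0.89, 0.15). *Lgals3* is also abundant in macrophages, and 10 of 12 macrophage markers had negative log2 fold changes, with *Itgax* and *Adgre1* past the cut-offs. Their part in this value was not tested.

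**Figure D3:**
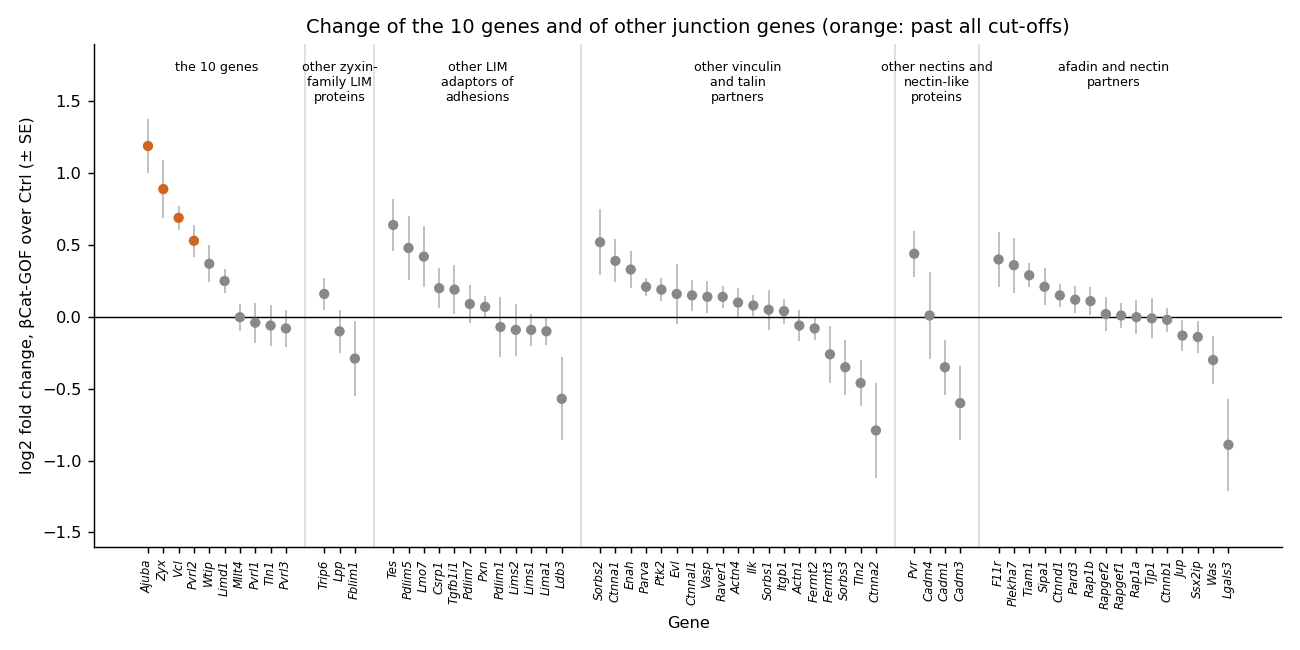
Log2 fold change of βCat-GOF over Ctrl with its SE (vertical axis) for the 10 genes and for 54 other junction genes in 5 lists (horizontal axis), with genes past all cut-offs in orange. The 4 orange points, *Ajuba*, *Zyx*, *Vcl* and *Pvrl2*, belong to the 10 genes, which were chosen with this contrast known. By edgeR 0 of the other 54 genes passed, and of all genes tested 1.48% passed as higher and 0.869% as lower.

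The βCat-GOF mice were not alike in which of these genes were raised. Mice 1 and 2, which share a label stem, may be 2 samples of 1 animal and would then count once. Relative to the Ctrl mean, *Ajuba* was higher by 1.73 and 1.68 log2 CPM in mice 1 and 2 and by 0.76 to 1.01 in mice 3 to 6. *Wtip* was higher by 0.76 and 0.54 in mice 1 and 2 and by 0.01 to 0.41 in the others. *Zyx* ran the other way, with 0.09 and 0.47 in mice 1 and 2 and 0.59 to 1.63 in the others. *Limd1* did too, with -0.05 and 0.08 in mice 1 and 2 and 0.28 to 0.44 in the others. *Vcl* was raised in each mouse, by 0.63 and 0.5 log2 CPM in mice 1 and 2 and by 0.59 to 0.94 in the others. *Pvrl2* followed neither pattern, with 0.21 and 0.56 in mice 1 and 2 and 0.28 to 0.83 in the others.

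Cortical markers differed between the same mice. The mean of the 11 zG markers tested was 6.4–7.01 log2 CPM in Ctrl mice. In βCat-GOF mice 1 to 6 it was 7.74, 8.0, 6.61, 6.83, 7.68 and 7.05, so that mice 1, 2 and 5 had the highest means. The mean of the 10 markers of the zona fasciculata (zF), the corticosterone-producing layer beneath the zG, was 11.39–11.64 log2 CPM in Ctrl mice. In βCat-GOF mice 1 to 6 it was 10.92, 11.61, 12.22, 12.22, 11.91 and 12.26. Mouse 1 was below every control in zF markers, and mice 3 to 6 were above every control. Of the 10 zF markers, 6 had positive and 4 had negative log2 fold changes between the genotypes. *Akr1b7* was the only zF marker past the cut-offs (log2 fold change 1.48, adjusted p = 0.046). In βCat-GOF mice 1 to 6 *Ajuba* had 2733, 2710, 1628, 1515, 1725 and 1462 normalized counts. The part of zone make-up in the levels of the 10 genes was not tested.

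**Figure D4:**
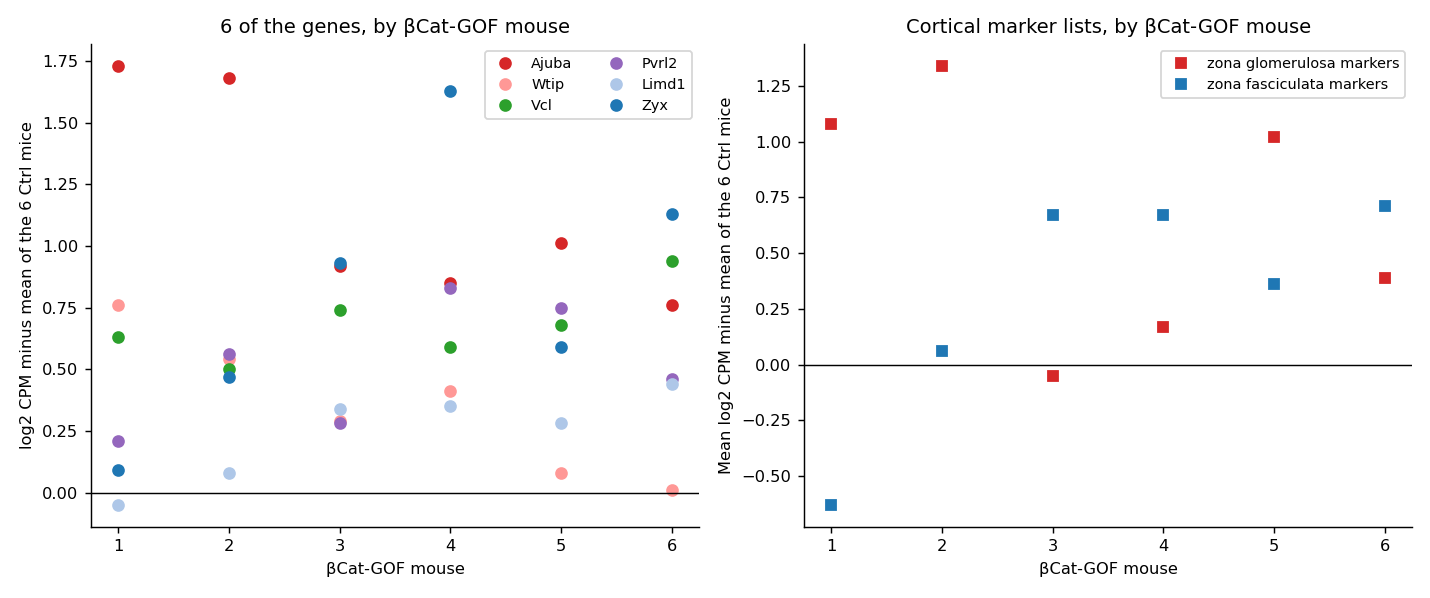
Difference from the mean of the 6 Ctrl mice in log2 CPM (vertical axes) in each of the 6 βCat-GOF mice (horizontal axes), for 6 of the genes (left) and for the mean of the zG and zF marker lists (right). In mice 1 and 2, which may be 2 samples of 1 animal, *Ajuba* is 1.73 and 1.68 above the Ctrl mean, while *Zyx* is 0.09 and 0.47 above it. *Vcl* stays between 0.5 and 0.94 in all mice.

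Of the other marker lists, 10 of 12 medulla markers (median log2 fold change -0.35) and 10 of 12 endothelium markers (median -0.12) had negative log2 fold changes. The genotypes overlapped in both lists by mouse. The mean of the medulla markers was 7.03–8.67 log2 CPM in Ctrl mice and 7.4–8.07 in βCat-GOF mice. For the endothelium markers the means were 5.8–6.04 in Ctrl and 5.61–6.07 in βCat-GOF. Medulla (12 markers), capsule and fibroblast (12), smooth muscle and pericyte (10 tested), endothelium (12), adipocyte (7 tested) and platelet and blood cell (5 tested) markers had 0 genes past the cut-offs by edgeR. Among all genes tested, 1.48% passed as higher and 0.869% as lower. Of the 58 markers in these lists 16 had an unadjusted p under 0.05, 11 of them lower and 5 higher in βCat-GOF. The share of all genes at that p is not given here, so nothing is read from these counts. The smallest adjusted p was 0.073. DESeq2 without shrinkage called 1 as higher and 2 as lower (*Vwf*, *Myh11* and *Acta2*). The macrophage list, whose proteins include the adhesion receptor integrin αX (*Itgax*), summed to 454–856 CPM in Ctrl and 355–587 CPM in βCat-GOF.

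Covariation was examined on deviations from each group's mean. The difference between the group means does not enter these deviations, but the spread behind the SE and adjusted p of each gene does rest on them. Over 12 mice and 45 pairs of the 10 genes, 23 pairs had a positive Pearson r. No pair passed Benjamini-Hochberg adjustment over 45 pairs in a permutation test within groups, for Pearson's r or Spearman's rho, and 4 pairs had an unadjusted p under 0.05 for r and 5 for rho. Without βCat-GOF mouse 4, 1 pair passed, *Limd1* and *Zyx* (r = 0.95, permutation p = 0.00075, adjusted 0.034). That adjustment covered the 45 pairs of 1 run and not the choice of which mouse to leave out. *Zyx* and *Tln1* had r = 0.72 (permutation p = 0.0043, adjusted 0.19) and rho = 0.69 (permutation p = 0.037, adjusted 0.37), and r was 0.55 without the 2 mice farthest from the *Zyx* median. *Limd1* and *Zyx* had r = 0.82 (permutation p = 0.015, adjusted 0.23) and rho = 0.78 (permutation p = 0.0078, adjusted 0.35), and r was 0.69 without the 2 mice farthest from the *Limd1* median (βCat-GOF mice 1 and 6). Without βCat-GOF mice 1 and 2, with deviations taken again, r for *Limd1* and *Zyx* was 0.47, for *Limd1* and *Wtip* -0.39, for *Limd1* and *Tln1* 0.42 and for *Zyx* and *Tln1* 0.58. *Limd1* and *Wtip* had r = -0.8 (permutation p = 0.012, adjusted 0.23) and rho = -0.68 (permutation p = 0.041, adjusted 0.37), and r was -0.51 without the 2 farthest mice. *Limd1* and *Tln1* had r = 0.62 (permutation p = 0.042, adjusted 0.33) and rho = 0.65 (permutation p = 0.04, adjusted 0.37), and r was 0.41 without the 2 farthest mice.

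*Ajuba* and *Limd1*, members of one family, had r = -0.68 (permutation p = 0.051, adjusted 0.33) and rho = -0.57 (permutation p = 0.1, adjusted 0.42). This relation differed in sign between genotypes, with r = 0.48 over the 6 Ctrl mice and r = -0.98 over the 6 βCat-GOF mice, a difference that was not tested. It rested on βCat-GOF mice 1 and 2, the 2 farthest from the *Ajuba* median, without which r was -0.25, or 0.2 when deviations were taken again from the mean of the remaining 4. *Ajuba* and *Zyx* had r = -0.64 (permutation p = 0.07, adjusted 0.33) and rho = -0.8 (permutation p = 0.019, adjusted 0.37), and without the same mice r was -0.32, or -0.1 with deviations taken again. All pairs share the same libraries and depths.

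**Figure D5:**
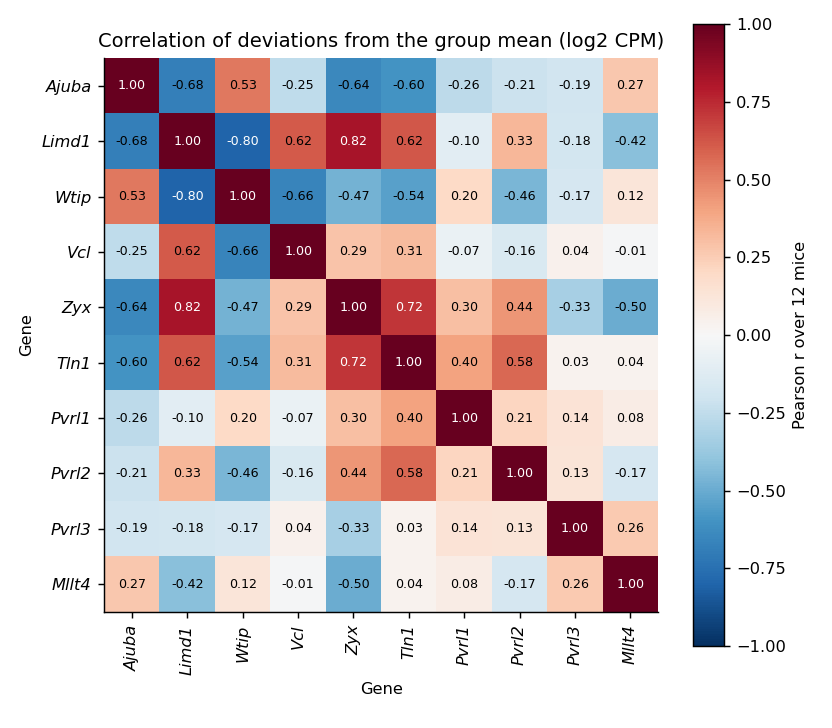
Pearson r between the 10 genes (both axes) of log2 CPM deviations from the group mean over 12 mice, coloured from -1 (blue) to 1 (red). *Limd1* with *Zyx* (0.82) and *Zyx* with *Tln1* (0.72) are the strongest positive pairs, *Limd1* with *Wtip* (-0.8) is the strongest negative pair, and 0 of 45 pairs passed adjustment.

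Across 11431 genes with a mean above 100 normalized counts, those that varied most like each of the 4 called genes were found on the same deviations, by Pearson r over 12 mice. For *Ajuba* they were *Tnik* (r = 0.94), *Dnajc27* (0.94) and *Prrg3* (0.93). For *Vcl* the values were lower, with *Erlin1* (0.89), *Nucks1* (0.86) and *Pgam5* (0.85). For *Zyx* they were *Acsf2*, *Srprb* and *Elac2* (0.96 each), and for *Pvrl2* they were *Hnrnpm* (0.91), *Ints3* (0.91) and *Kctd3* (0.89). These are the highest of many coefficients and are given as a description.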

How the data were processed

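Whole-adrenal RNA of 12 female mice, 6 per genotype, had been sequenced as 1 library per label. Per the labels and the paper's methods, the authors removed adapters, used STAR for alignment to mm10 and featureCounts 1.4.4 for gene-level counting of unique alignments, and deposited these counts without normalization. The strand setting is not given in the sources used here. The authors also deposited a signal table, the counts divided by 1 factor per library, used only as an alternative scaling. No column was left unmapped (0 columns), and 966 identifiers have no symbol.

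Counts were tested with edgeR 4.0.16 (R 4.3.3, TMM, filterByExpr, two-sided quasi-likelihood test, Benjamini-Hochberg adjustment over 14953 genes). Cut-offs were those of the study: a fold above 1.4, adjusted p under 0.05 and base mean above 100. The SE is the log2 fold change divided by the square root of F. Normalized counts are counts divided by DESeq2 1.42.0 median-of-ratios factors. Log2 CPM used TMM-adjusted library totals and a prior count of 2, and CPM sums were taken from these values. Correlations were permuted 100000 times within groups, and 20000 times where mice were left out. Positions and exons came from GENCODE M21 and promoters from RefSeq. On simulated counts of this comparison (14820 genes), edgeR recovered 30 of 100 genes changed 1.5-fold and 72 of 100 changed 2-fold, with 8 false calls. Calls on simulated counts used an adjusted p under 0.05 alone, without the cut-offs on fold and base mean.

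The genes, lists, motifs and tests were chosen with earlier results of these data known. Named were all 10 genes, in each further list the genes past the cut-offs or else the 2 with the smallest adjusted p, up to 4 called markers per marker list, the 3 most similar genes of each called gene, and *Ctnnb1*. *Cyp11b2*, *Ap3m1*, *Zfp160* and the markers called by DESeq2 alone were named outside this rule, after their values were seen. SDs and SEs include the spread between libraries, and the CPM of 3 counts covers counting error only.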

Additional observations from a re-analysis of the deposited data

Results flagged for a closer look

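Among 20 groups of 6 mice (10 genes, 2 genotypes), 1 sample lay far from the rest of its group. In *Zyx*, Ctrl mouse 5 was the highest control with 1170 normalized counts, and its gap to the next mouse was 0.765 of the group's range, above the critical value of 0.625 for 6 samples. Chance flags about 1 in 20 groups. Without this mouse, *Zyx* no longer overlapped between genotypes.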

How the results depend on the processing

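The call of *Ajuba* and *Vcl* held in all 20 distinct alternative fits with the same cut-offs. *Zyx* held in 14 and *Pvrl2* in 16, and *Limd1* gained an adjusted p under 0.05 without βCat-GOF mouse 1 and without βCat-GOF mice 1 and 2. No called gene changed sign, whereas the signs of *Tln1*, *Pvrl1*, *Pvrl3* and *Mllt4* varied around 0. Of the 10 genes, 4 passed the cut-offs, against 2 at an adjusted p under 0.01 and 0 in a test against a fold of 1.4. Leaving out 1 mouse gave 2 to 4, with 2 without Ctrl mouse 4 and 2 without Ctrl mouse 6, and 2 to 5 genes at an adjusted p under 0.05 alone. Non-overlapping genes numbered 3, or 5 without βCat-GOF mice 1 and 2, and 3 to 4 without any 1 mouse. Correlated pairs numbered 0 to 1 without any 1 mouse. The 1 pair, *Limd1* and *Zyx*, passed without βCat-GOF mouse 4.

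Of all genes, 222 passed as higher in βCat-GOF and 130 as lower. These counts became 361 and 280 with DESeq2 without shrinkage, 443 and 481 without βCat-GOF mice 1 and 2, 90 and 31 at an adjusted p under 0.01, and 40 and 10 in the test against a fold of 1.4. The lower count alone moved to 254 with DESeq2 and its prior, 236 with 1 mouse of each shared label stem left out, 80 without βCat-GOF mouse 5, whose label differs from the others', and 228 with no limit on fold or base mean. Leaving out 1 mouse gave 146 to 341 higher and 60 to 225 lower genes, lowest without Ctrl mouse 6 and highest without βCat-GOF mouse 1. The cause of these shifts was not tested. Levels per kilobase moved with the longest transcript as the length for most genes, since it is shorter than all exons together. TMM-scaled counts, the correlation p-values and the correlation without βCat-GOF mice 1 and 2 were added after the data were seen. No paired analysis was possible because the mouse labels pair no control with a βCat-GOF mouse.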
